A study of Mus musculus with 40 samples.

Results

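Neutrophils are short-lived white blood cells that mature in the bone marrow and carry ready-made antimicrobial proteins in granules. The granules are filled in waves: primary granule enzymes are made by promyelocytes, secondary granule proteins by the later myelocytes, and mature neutrophils of the blood hold little mRNA of either wave but much mRNA of the cytosolic calcium binding proteins S100a8 and S100a9. Neutrophils are known to enter fat tissue early on a high-fat diet, whereas precursors that still make granule mRNA are normally found in the marrow.

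The genes described here are 10 of the 29411 gene symbols in the deposited fold change table. Mpo, Prtn3 and Ctsg encode primary granule enzymes. Camp, Ltf and Ngp encode secondary granule proteins, Cebpe encodes the transcription factor that secondary granule genes need, and Lcn2 encodes an iron-siderophore binding protein of the same granules. S100a8 and S100a9 encode the subunits of calprotectin. The 10 genes were picked because the low-fat array of week 18 looked like bone marrow in these same data. Their levels on that array thus describe the choice. They entered an alternative fit of the high-fat against the low-fat diet with the week 18 pair, and nothing is read from it. All 10 were found on the array, Ltf with 2 probes and each other gene with 1.

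The series holds 40 arrays of RNA labelled as subcutaneous stromal vascular cells (SVCs) of C57BL/6J mice, which the series title calls infiltrating macrophages. Mice weaned at 3 to 4 weeks of age received a diet with 10% of its calories from fat (LFC), a diet rich in sucrose with 60% of its calories from fat (HFC), or the latter with 5, 20 or 75 µg of the botanical formulation KAL-1 (HF5, HF20 and HF75). There were 11 LFC arrays and 11 HFC arrays (days 1, 6, 10 and 14 and weeks 0, 3, 6, 9, 12, 15 and 18), 6 HF5 arrays (weeks 3 to 18), and 5 arrays each of HF20 and HF75 (weeks 3 to 15). The files hold 1 array per diet and time point, although the series text speaks of 3 biological replicates, and how many mice contributed to an array is not given. By the study's methods weeks count from day 14, so day 14 and week 0 are the same time on diet, kept here as 2 pairs of arrays. The labels of 2 further arrays of week 18 conflict, so these 2 entered no comparison.

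Every level below is the log2 of an array's processed signal minus the log2 of that array's 75th percentile. A step of 1 is a doubling. Except on the dim array named below, 0 is a bright probe and levels can be compared between arrays for the same probe. They cannot be compared between probes. A value under the lowest level well above background on its array was raised to that level, and a saturated probe gives only a lower bound. Of the 38 arrays with consistent labels, 2 stood apart. On the LFC array of day 14, 9104 spots were outliers and Prtn3, Ngp and Lcn2 have no value. The LFC array of week 3 was dim, with 17.2% of probes well above background against a median of 69.6% over all 38. Its 75th percentile was an intensity of 7.86 against a median of 755, so 0 there is near background. Its lowest usable level was -0.03, which lifts every dim gene there. Levels of bright genes on it also rest on that low percentile and are not comparable with those of other arrays. Results that use these arrays are given with and without them where this changed a direction, a call or a count of genes. At week 9 a mark, WS, that no label explains stands in 4 of the 5 array titles, and HF75 is the exception.

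On the LFC array of week 18 the primary granule genes stood far above their level elsewhere. Mpo, the peroxidase that makes hypochlorous acid, was saturated at 6.62, against a median of -2.03 on the other 37 arrays. Its highest value on those was 2.13, on the dim LFC array of week 3. Prtn3, a serine protease, was at 2.66 and had a median of -5.59 elsewhere. Ctsg, the serine protease cathepsin G, was saturated at 6.36 and had a median of -2.74 elsewhere. Set against the mean of the other LFC arrays, these are differences of at least 182-fold for Mpo, 193-fold for Prtn3 and 427-fold for Ctsg. Without the dim LFC array of week 3, that of Prtn3 was at least 295-fold. Of the 38 arrays with consistent labels, no other with a value held the primary granule mRNAs at such levels.

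The secondary granule genes also stood far above their level elsewhere. Camp, the precursor of the antimicrobial peptide CRAMP, was saturated at 6.63, and no other array exceeded 1.70. Ngp, a cathelicidin-related granule protein, was saturated at 6.57, and no other array with a group exceeded 0.26. Ltf, the iron binding protein lactoferrin, was saturated at 6.43, and the next highest array stood at 3.07. The differences from the mean of the other LFC arrays were at least 297-fold for Camp, 835-fold for Ngp and 140-fold for Ltf. Cebpe was measured at 5.08, a 155-fold difference, and Lcn2 at 4.77, at least 116-fold above the other LFC arrays.

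The calprotectin genes were saturated as well, so their gaps are lower bounds. S100a8 was saturated at 6.43, above a highest value of 5.65 elsewhere, which came from the dim LFC array of week 3. S100a9 was saturated at 6.38 and 4 other arrays lay above that bound. They were led by the dim LFC array of week 3 at 8.78, which is not comparable, and the HF5 array of week 18 at 6.96. In all, 9 of the 10 genes were higher on the LFC array of week 18 than on every other array, and 7 of the 10 were saturated there. Of all 25686 probes well above background on it, 1924 (7.49%) were higher than on every other array. Since the genes were chosen from this array, nothing is read from that contrast. On the HFC array of the same week Mpo was 0.00, Camp 0.82, Ngp -0.04 and Lcn2 -2.13, and on the HF5 array Mpo was 1.85, Camp 1.54, Ngp 0.26 and Lcn2 -0.54. These lie far below the LFC array, but Camp, Ngp and S100a8 were highest of the HFC arrays at week 18, and Mpo, Ctsg, Camp and Ngp highest of the HF5 arrays.

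**Figure D1:**
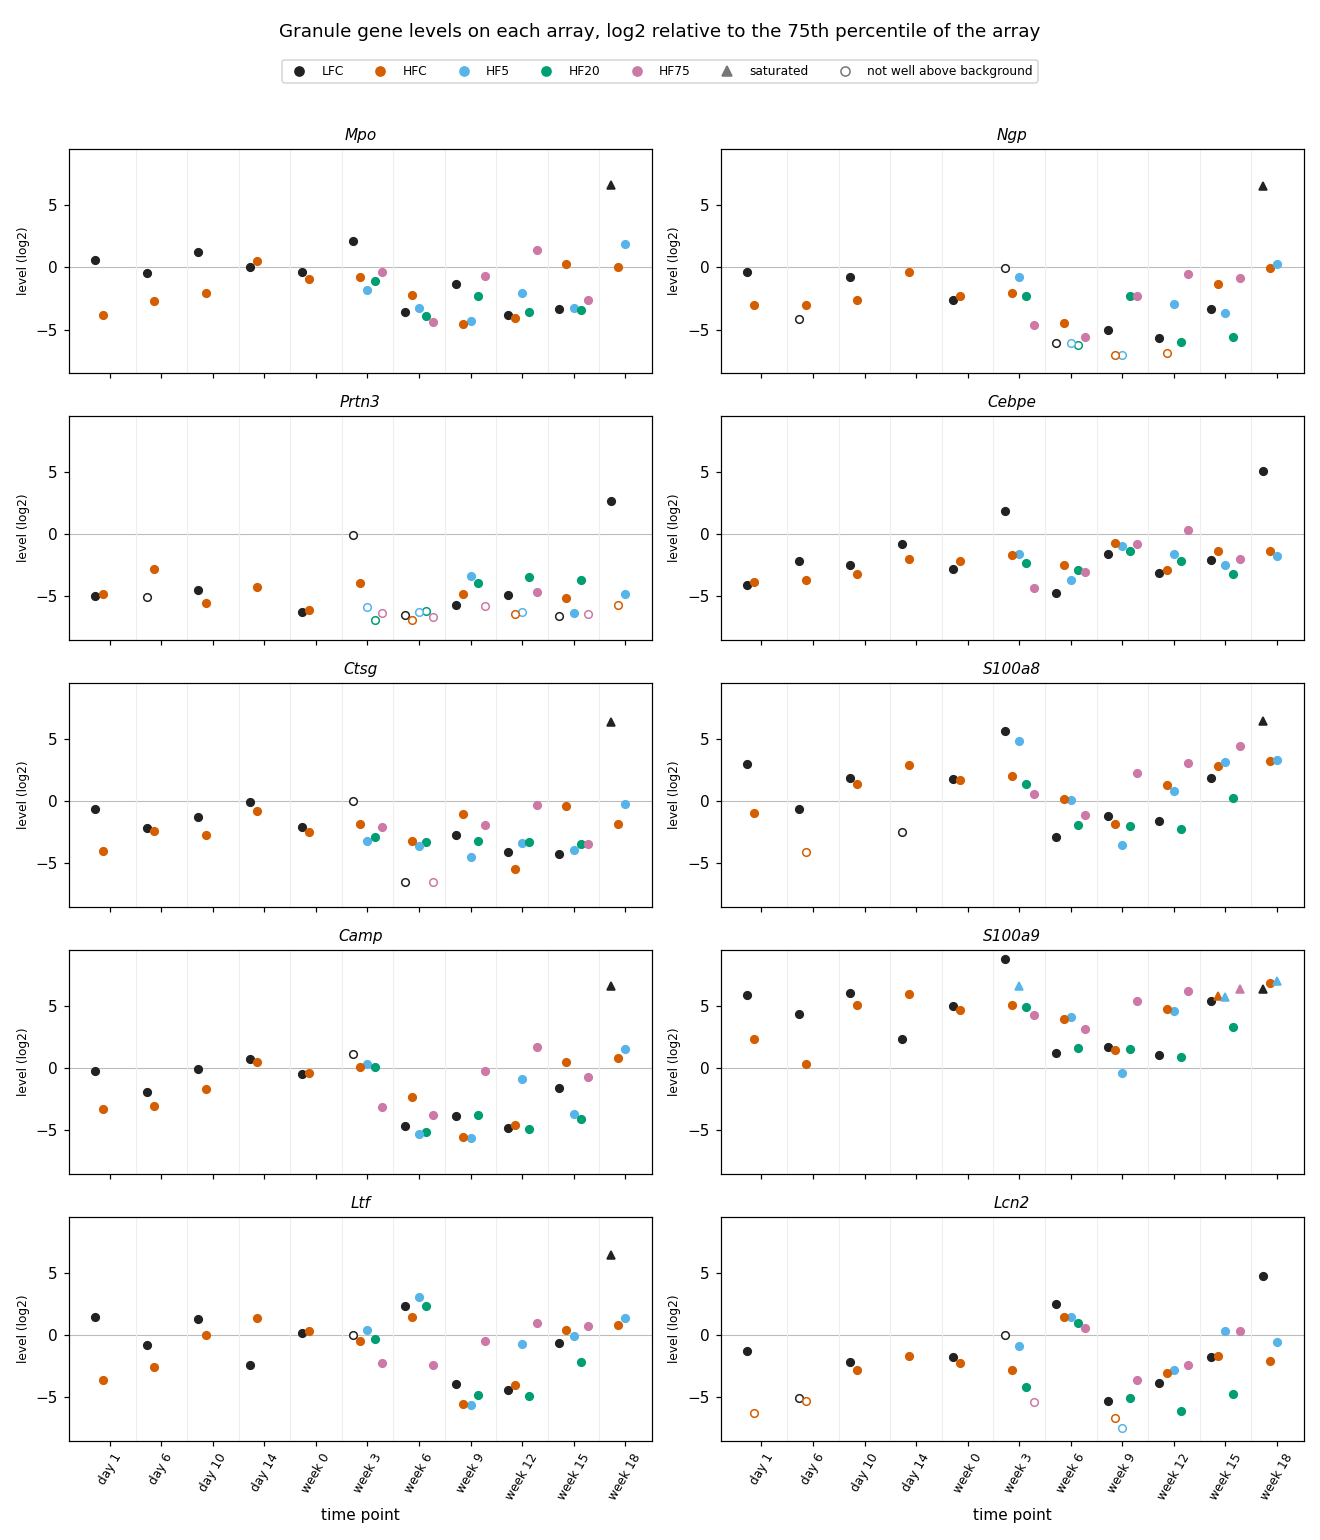
Log2 level of each of the 10 genes (relative to the array's 75th percentile, vertical axes) on the 38 arrays by time point (horizontal axes), coloured by diet; triangles are saturated spots and open symbols are values not well above background. The LFC array of week 18 tops 9 of the 10 panels, as the choice of the genes fixed, with Mpo at 6.62 and Cebpe at 5.08.

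The other neutrophil genes on the arrays showed how far the picture on the LFC array of week 18 extended. Of 35 further genes known from neutrophils and their precursors, 35 were well above background there and 24 were higher than on every other array. Ms4a3, a marker of granulocyte and monocyte progenitors, was at 4.53 against a median of -5.83 elsewhere, and Elane, the primary granule elastase, was at 4.21 against -4.36. Fcnb, a ficolin of immature neutrophils, was at 2.49 against -6.71. Among genes of later stages, the gelatinase Mmp9 was at 3.06 against -2.26, the collagenase Mmp8 at 3.61 against -3.21, the surface protein Ly6g at 2.13 against -1.76, the receptor Csf3r at 1.62 against -2.92 and the secreted protein Retnlg at 4.54 against -1.26. Both early and late genes of the lineage were thus at their highest there, whereas the regulators Cebpa (-0.45) and Cebpd (4.35) lay within the range of the other arrays.

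Markers of other cell types on the same array were read from lists, by the number of genes well above background and the sum of their unlogged levels, in units of the array's 75th percentile. The gene with the brightest probe is said to lead a list. The erythroid list had 11 of 11 measured genes and a mean level of 3.62, against a median of -2.81 and a highest value of 1.89 on the other arrays. Of its genes 9 were higher than on every other array, such as Klf1 at 4.01 against a median of -5.98, and the exceptions were the saturated globins Hba-a1 and Hbb-b1. Its sum was at least 334, led by Hbb-b1, against a median of 98.2. Cell cycle genes had 10 of 10 and a sum of at least 264, led by the saturated Mki67, against a median of 8.57. Eosinophil genes had 6 of 6 and a sum of 63.4, led by Prg2 at 5.54, against 0.576. B cell precursor genes had 8 of 9 and a sum of 21.8 against a median of 3.07, and the dim LFC array of week 3 was higher with 37.2. The sum was led by Cd79b at 4.03. Vpreb1, Vpreb3, Dntt, Rag1, Cd79a and Pax5 were also above their medians elsewhere. Rag2 was not well above background, and Ebf1 was at -2.18 against a median of -0.04. No gene of this list was higher than on every other array. T cell genes had 6 of 6 measured genes and a sum of 7.91 against a median of 2.75, and mature B cell genes had 6 of 6 and 24.98 against 1.39. Megakaryocyte and platelet genes had 7 of 7 and 9.34 against 10.46, and mast cell genes had 5 of 6 and 3.01 against 5.21. These 4 lists lay within the range of the other arrays. The megakaryocyte and platelet sum was led by Pf4. By mean level that list was at -0.68 against a median of -2.90, and 1 other array was higher. The mast cell list was by mean level at -2.39 against a median of -1.15, and 35 other arrays were higher. Of its genes Cma1 (-2.73) and Mcpt4 (-3.34) were below every other array, where the lowest values were -1.85 and -2.28. Kit and Fcer1a were above their medians.

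Markers of stromal and fat cells were low there. The fibroblast list had 2 of 8 genes well above background and a sum of 0.264, against a lowest value of 91.4 on any other array. The adipocyte list had 3 of 8 and a sum of 4.53 against a lowest value of 52.6 elsewhere, and the endothelial list had 4 of 7 and 0.477 against 2.27. Macrophage genes, which the series title names, were unremarkable with 10 of 10 and a sum of 22.9 against a median of 28.2. Osteoblast genes had 4 of 7 and a sum of 0.843, below every other array. Skeletal muscle, keratinocyte and mammary epithelium genes had 3 of 6, 2 of 7 and 3 of 8, with sums of 1.11, 0.0588 and 0.547 inside the range of the other arrays. The mean level of the skeletal muscle list, -5.00, was however below that of all 37 other arrays. Each of those had at least 4 genes of this list well above background. Of the fibroblast genes Col1a2 (-2.33) and Col1a1 (-3.95) were well above background and Col3a1, Dcn, Lum, Pdgfra, Dpt and Fbln1 were not, on an array labelled as stromal vascular cells. The origin of its RNA was not tested.

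Away from that array the primary granule genes were low and varied widely. Mpo ranged from -3.82 to 2.13, on the dim array of week 3, with a median of -0.39 on the other 10 LFC arrays. It ranged from -4.55 to 0.53 with a median of -2.03 on the 11 HFC arrays. On HF5 it ranged from -4.34 to 1.85 with a median of -2.68. On HF20 it was -1.10, -3.90, -2.30, -3.61 and -3.40 at weeks 3, 6, 9, 12 and 15, and on HF75 it was -0.36, -4.38, -0.68, 1.38 and -2.59. The diets overlapped throughout, and each held both high and low arrays. In RNA from whole cell mixtures, fewer neutrophils and less of an mRNA per neutrophil cannot be told apart.

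Ctsg followed Mpo and Prtn3 did not. Ctsg ranged from -6.47 to -0.03 with a median of -2.14 on the other LFC arrays and from -5.45 to -0.42 with a median of -2.42 on HFC. Both ends of that LFC range, at weeks 6 and 3, were not well above background. The 5 HF20 values of Ctsg lay close together, from -3.43 to -2.92. Its 5 HF75 values ran from -6.49, not well above background, to -0.30. Prtn3 was near the detection limit. Without the LFC array of week 18 it was well above background on 5 of 9 LFC arrays with a value, 8 of 11 HFC, 3 of 6 HF5, 3 of 5 HF20 and 1 of 5 HF75 arrays. Across 37 arrays Mpo and Ctsg correlated with Pearson's r of 0.819 and Spearman's rho of 0.841, whereas Mpo and Prtn3 gave 0.274 and 0.206 across 36, and r was 0.083 without the LFC arrays of day 14 and week 3.

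Among the secondary granule genes Camp and Ngp moved together. Camp ranged from -4.84 to 1.13 with a median of -1.02 on the other 10 LFC arrays, from -5.57 to 0.82 with a median of -1.70 on HFC and from -5.62 to 1.54 with a median of -2.31 on HF5. The highest LFC value of Camp, on the dim array of week 3, was not well above background. On HF20 it was 0.06 at week 3 and -5.12, -3.80, -4.92 and -4.10 at weeks 6, 9, 12 and 15. On HF75 it was -3.10, -3.79, -0.21, 1.70 and -0.75 at the same weeks. The diets overlapped in Camp, and of the HF20 arrays only that of week 3 lay above -3.80.

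Ngp rose and fell largely with Camp, with r of 0.929 and rho of 0.945 across 36 arrays. An exception was HF20, where Ngp was -2.33 at week 3 and -2.34 at week 9, while Camp was 0.06 and -3.80. Ngp ranged from -6.11 to -0.03 on the other LFC arrays, from -7.06 to -0.04 on HFC, from -7.02 to 0.26 on HF5, from -6.23 to -2.33 on HF20 and from -5.59 to -0.52 on HF75. Both ends of its LFC range, at weeks 6 and 3, were not well above background, and 6 of 9 LFC values were well above it. Mpo and Camp, made at different stages of maturation, also rose and fell together, with r of 0.863 and rho of 0.870 across 37 arrays. Lymphocyte lists ran with both across 35 arrays, with r of 0.787 for Mpo and 0.792 for Camp with the mature B cell list, 0.748 and 0.751 with the T cell list, and 0.782 and 0.765 with the B cell precursor list. The part of these cells in the pattern was not tested. Cebpe followed neither closely, with r of 0.452 for Camp and 0.364 for Ngp. Its probe has 2 spots, which differed by 5.70 on the log2 scale on the LFC array of day 1.

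Ltf and Lcn2 parted from the other granule genes at week 6. Ltf was 2.35 on LFC, 1.46 on HFC, 3.07 on HF5, 2.29 on HF20 and -2.42 on HF75 at that week. Lcn2 was 2.47, 1.45, 1.40, 0.98 and 0.58 in the same order. Camp on the same 5 arrays was -4.69, -2.33, -5.27, -5.12 and -3.79. Lcn2 was thus high on all 5 arrays of week 6 and Ltf on 4, while Camp was low on every one and Ngp was not well above background on 3 of them.

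Both proteins are also known products of epithelia, and lactoferrin is a milk protein. The mammary epithelium list had 3 to 5 of 8 genes well above background and sums from 66.9 to 221 on the 5 arrays of week 6, led by Krt8 or by Krt18, which was saturated on HF20, against a highest value of 29.7 on the other 33 arrays. Krt8 was 6.73 on LFC, 5.18 on HFC, 5.71 on HF5, 5.25 on HF20 and 5.34 on HF75 at week 6. Of the list's milk genes, Csn2, Csn3 and Wap were not well above background on any of these 5 arrays, and Lalba was on 4 of them, from -4.63 to -4.16, near its median of -4.17 over all 38 arrays. Across 35 arrays the mean level of this list correlated with Ltf (r of 0.778) and Lcn2 (r of 0.807) and hardly with Camp (r of 0.122). The adipocyte list ran the other way, with r of -0.706 for Ltf, -0.822 for Lcn2 and -0.325 for Camp. These describe values already seen. The part of epithelial or adipocyte RNA in the week 6 levels of Ltf and Lcn2 was not tested.

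**Figure D2:**
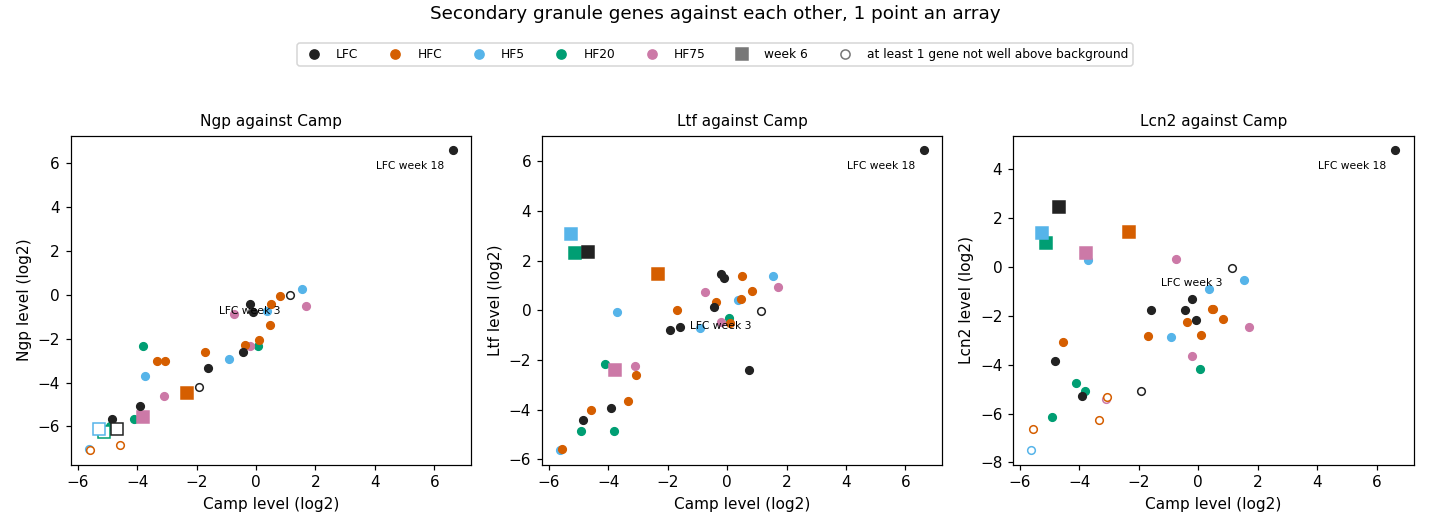
Each point is an array, with the log2 levels of a pair of genes (relative to the array's 75th percentile) on the 2 axes, coloured by diet; open symbols mark arrays where at least 1 gene was not well above background. Camp and Ngp lie along a line (r of 0.929 without the LFC array of week 18, whose Camp, Ltf and Ngp values are saturated), and week 6 arrays, drawn as squares, lie off the trend in the panels of Ltf (4 of 5) and Lcn2.

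The Ltf values come from the brighter of 2 probes, and the other probe gave the same picture. Their levels correlated with r of 0.963 over 37 arrays, with a median difference of 0.82, and the dimmer probe read 1.13, 0.13, 2.48, 1.51 and -3.37 at week 6 on LFC, HFC, HF5, HF20 and HF75. The 60-base probes behind the week 6 contrast are shown because they are where the measurement was made.
Ltf, brighter probe: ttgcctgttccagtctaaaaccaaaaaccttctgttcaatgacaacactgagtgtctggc
Ltf, dimmer probe: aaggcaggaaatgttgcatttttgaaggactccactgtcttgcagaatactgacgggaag
Lcn2 probe: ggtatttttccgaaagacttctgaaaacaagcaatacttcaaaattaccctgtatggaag

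S100a8 and S100a9, which form a heterodimer, kept nearly the same order of arrays, with r of 0.964 and rho of 0.975 across 37 arrays. S100a9 ranged from 1.05 to 8.78 with a median of 4.64 on the other 10 LFC arrays, from 0.33 to 6.80 with a median of 4.78 on HFC and from -0.39 to 6.96 with a median of 5.16 on HF5. S100a8 ranged from -2.86 to 5.65 with a median of 0.56 on LFC, from -4.12 to 3.23 with a median of 1.34 on HFC and from -3.49 to 4.86 with a median of 1.97 on HF5. The highest LFC values of both genes came from the dim array of week 3. S100a9 was well above background on all 38 arrays and S100a8 on all but 2. Besides the LFC array of week 18, S100a9 was saturated on 5 arrays, HF5 at weeks 3, 15 and 18 and HFC and HF75 at week 15, whose values are lower bounds. The pair tracked Camp (r of 0.725 for S100a8 and 0.782 for S100a9) more closely than Lcn2 (r of 0.428 and 0.459).

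The genes whose levels most resembled each set were found among 22450 other genes, again without the LFC array of week 18. For the mean of Mpo, Prtn3 and Ctsg these were Ms4a3 (r of 0.855, 36 arrays), Ela2 (0.852, 37 arrays), which is the array's name for the elastase gene Elane, then Stambpl1, Il4 and A130082M07Rik. For the mean of Camp, Ltf, Ngp and Cebpe they were Hist1h1d (0.824, 35 arrays), LOC100041230, 5830416P10Rik, H2-Ob and Gm8736. For the mean of S100a8, S100a9 and Lcn2 they were Slfn4 (0.864), Clec4d (0.857), Il1rn (0.847), Hist1h3a and Tox, each over 37 arrays. Without the same LFC arrays Hist1h1d was at 0.820 and Slfn4 at 0.858.

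The question of the HFC arrays is whether the fat-rich diet moved the granule genes, and 10 pairs of arrays of the same time point, from day 1 to week 15, address it. In limma with time point as a block, 0 of the 10 genes passed an adjusted p of 0.05, as did 0 of 30146 probes (0%). At an unadjusted p under 0.05 there were 1 gene, Lcn2, and 628 probes, without the week 3 pair 0 genes and 544 probes, with normexp background correction 0 genes and 1362 probes, and with an unmoderated test 0 genes and 614 probes. The median difference, HFC minus LFC, was -0.31 for the 10 genes and -0.11 for all probes. It was -0.09 and 0.11 without the week 3 pair, and -0.03 and -0.10 with normexp. On the 9 pairs of a shared scan the direction turned for Ctsg, from -0.05 to 0.31, and S100a9, from -0.23 to 0.14.

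Lcn2 had the lowest difference. Its HFC and LFC means over 9 pairs were -3.27 and -2.08, a difference of -1.19 (95% interval -2.35 to -0.03, limma adjusted p = 0.968). Both arrays measured it in 5 pairs, and HFC was higher in 2 of them. The day 1 pair was widest, -6.27 on HFC where it was not well above background against -1.30 on LFC, and the next was week 3, -2.80 on HFC against the dim LFC array's lowest usable level of -0.03. The difference was -0.72 without day 1, -0.99 without week 3 and -0.34 with normexp, and the 4 pairs on a shared slide gave -1.22. Keratinocyte genes had a median of -1.81 in this comparison, with 2 of 5 at an unadjusted p under 0.05, and their part was not tested. S100a8 had the highest difference, 0.01 (95% interval -1.84 to 1.87, limma adjusted p = 0.999), which turned to -0.21 without the day 14 and week 3 pairs and was -1.95 over the 4 pairs on a shared slide. Mpo was higher on HFC in 3 of 10 pairs, with a difference of -1.13 (95% interval -2.64 to 0.38). This was -2.23 over the 4 pairs on a shared slide and -0.77 over the 9 of a shared scan, and without week 15 Mpo had an unadjusted p under 0.05.

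With 5 µg of KAL-1, 6 pairs of HF5 and HFC arrays showed no difference past the threshold. In limma 0 of 10 genes and 0 of 29200 probes (0%) were called, against 0 genes and 1504 probes at an unadjusted p under 0.05, and 0 genes and 1424 probes by an unmoderated test. The median difference, HF5 minus HFC, was -0.02 for the genes and -0.00 for all probes. With normexp these medians were -0.65 and -0.30, and 3 genes (Prtn3, Ctsg and Cebpe) and 8309 probes had an unadjusted p under 0.05.

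Ltf had the highest difference in HF5. It was 0.41, 3.07, -5.62, -0.73, -0.09 and 1.38 at weeks 3, 6, 9, 12, 15 and 18 on HF5, and -0.50, 1.46, -5.58, -4.00, 0.43 and 0.78 on HFC. HF5 was higher in 4 of 6 pairs, by 0.97 on average (95% interval -0.10 to 2.04, limma adjusted p = 0.966), with the widest gap at week 12. The Ltf difference ran from 0.51 without week 12 to 1.27 with another time point left out, and was 0.10 with normexp. Without week 15 Ltf had an unadjusted p under 0.05, and without week 9 Lcn2 did. Keratinocyte genes had a median of 2.44 in this comparison, with 0 of 5 at an unadjusted p under 0.05. It was -0.46 for macrophage genes, with 4 of 10 at that limit, and -0.59 for cell cycle genes, with 3 of 10. The part of these cells was not tested. Ctsg had the lowest difference, -0.84 (95% interval -2.68 to 1.00, limma adjusted p = 0.966), and was higher on HF5 in 2 of 6 pairs. It ran from -1.42 without week 12 to -0.31 without week 15. Over the 3 pairs on a shared slide the Ctsg difference was 0.07, and Mpo turned from -0.28 to 0.09, Camp from -0.42 to 0.06 and S100a8 from 0.16 to -0.03. At week 9 Mpo, Ctsg, Camp, Ltf, Ngp, S100a8, S100a9 and Lcn2 were at their lowest level of the HF5 arrays. Prtn3 (-3.38) and Cebpe (-0.94) were at their highest.

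With 20 µg of KAL-1 the calprotectin genes were lower than on HFC at most weeks. S100a8 was 1.39, -1.92, -2.00, -2.26 and 0.26 on HF20 and 2.03, 0.17, -1.83, 1.29 and 2.83 on HFC at weeks 3, 6, 9, 12 and 15. S100a9 was 4.93, 1.57, 1.53, 0.85 and 3.26 on HF20 and 5.07, 3.92, 1.46, 4.78 and 5.77 on HFC. S100a8 was lower on HF20 in 5 of 5 pairs and S100a9 in 4 of 5, with small gaps at weeks 3 and 9 for S100a9 and wide ones at weeks 6, 12 and 15 for both. At week 3 both were above their medians over the 37 arrays other than the LFC array of week 18, which were 1.29 for S100a8 and 4.70 for S100a9.

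The differences, HF20 minus HFC, were -1.81 for S100a8 (95% interval -3.07 to -0.55, limma adjusted p = 0.405) and -1.77 for S100a9 (95% interval -3.28 to -0.26, limma adjusted p = 0.405). Neither passed the threshold. The S100a9 value of HFC at week 15 is saturated, so its difference and interval rest on 1 lower bound. In limma 0 of 10 genes and 0 of 30831 probes (0%) were called. At an unadjusted p under 0.05 there were 2 genes and 3661 probes, 8 genes and 10015 probes with normexp background correction, 0 genes and 2141 probes without the block, and 1 gene and 2347 probes by an unmoderated test. Without week 6 or week 15 only S100a8 was left, with 2415 and 1060 probes, and without week 12 S100a8 was joined by Ctsg and Cebpe in place of S100a9, with 1509 probes. The median difference was -0.73 for the genes and 0.08 for all probes, and -1.37 and -0.39 with normexp. The median of the genes was -1.34 without week 9 and -0.27 without week 15. The 4 pairs of a shared scan gave -2.10 for S100a8 and -2.18 for S100a9, and no pair shared a slide.

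The remaining genes lay in the same direction in HF20 except Prtn3. Lcn2 was -1.28 (95% interval -2.98 to 0.43), Camp was -1.19 (95% interval -3.34 to 0.96) and Ngp was -0.14 (95% interval -2.99 to 2.70). Prtn3 was 0.59 (95% interval -1.33 to 2.51, limma adjusted p = 0.717) and turned to -0.60 with normexp. Of the 35 other neutrophil genes, 31 were tested, 0 were called by limma and 10 had an unadjusted p under 0.05, with a median difference of -1.11. In an alternative chosen after seeing the data, which kept only weeks 12 and 15, limma called S100a8 at -3.07 (adjusted p = 0.0489) and Lcn2 at -3.06 (adjusted p = 0.0465) along with 1877 of 33136 probes (5.66%). Prtn3 went the other way there, at 2.21 (adjusted p = 0.0773). The adjusted p of S100a8 over all alternatives ran from 0.0489 to 0.796.

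Other cell types differed on those same arrays. At weeks 12 and 15 the adipocyte list had 8 of 8 genes well above background in both diets, with mean levels of 5.70 and 5.31 on HF20 against 2.85 and 1.21 on HFC, and sums of 452.5 and 379 against 195 and 90.4. The list was led by Retn on HF20 and by Fabp4 on HFC. T cell genes were at -3.68 and -2.34 on HF20, with 6 of 6 genes well above background, against -2.47 and 0.15 on HFC, with 5 and 6 of 6. Their sums were 0.527 and 1.485 on HF20, led by Lck and Cd3d, against 2.497 and 18.2 on HFC, led by Cd3d. Mature B cell genes, led by Ms4a1, were at -4.73 and -4.01 on HF20 against -2.70 and 0.81 on HFC, with sums of 0.457 and 0.733 against 1.59 and 16.2. Over all 5 pairs the median difference was 1.62 for adipocyte genes, with 3 of 8 at an unadjusted p under 0.05. It was -1.75 for T cell genes, with 2 of 6 at that limit, and -1.55 for mature B cell genes, with 0 of 6. The part of these cell types in the S100a8 and S100a9 differences was not tested.

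The probes for the calprotectin genes are shown because this pair gave the widest differences in HF20.
S100a8 probe: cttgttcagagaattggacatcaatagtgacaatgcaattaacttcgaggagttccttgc
S100a9 probe: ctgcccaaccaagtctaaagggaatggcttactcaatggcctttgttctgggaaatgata

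**Figure D3:**
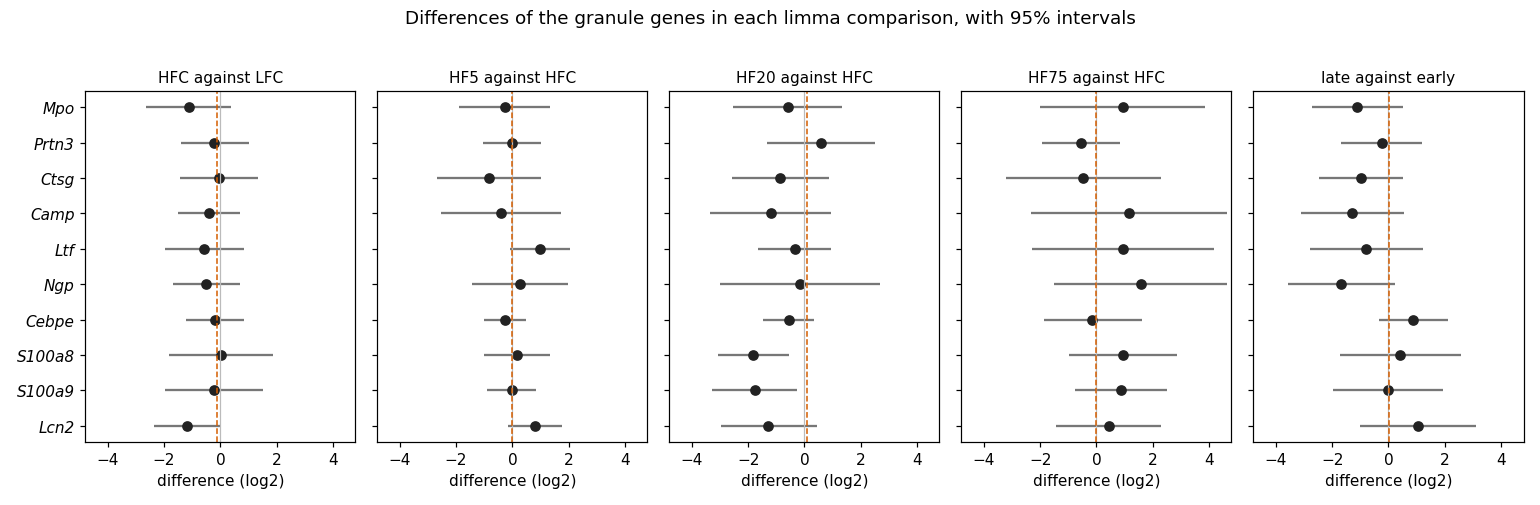
Log2 difference of each gene in 5 comparisons (horizontal axes); bars are 95% intervals from limma, grey lines mark 0 and dashed lines the median of all tested probes. Intervals of S100a8 and S100a9 in HF20 against HFC (-3.07 to -0.55 and -3.28 to -0.26) and of Lcn2 in HFC against LFC (-2.35 to -0.03) leave out 0, and no gene passed the adjusted threshold.

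With 75 µg of KAL-1 Camp and Ngp differed most from HFC at weeks 9 and 12. Camp was -0.21 and 1.70 on HF75 against -5.57 and -4.57 on HFC at those weeks, and lower on HF75 at weeks 3, 6 and 15. Ngp was -2.32 and -0.52 on HF75, against values not well above background on HFC. At week 9 the HFC title carries the unexplained mark and the HF75 title does not, which cannot be told apart from the diet there. The T cell list was at 1.09 and -0.48 on HF75 at weeks 9 and 12, led by Cd3d, against -3.50 and -2.47 on HFC, with sums of 38.3 and 13.2 against 0.757 and 2.497. Mature B cell genes were at 2.05 and 1.12, led by Ms4a1, against -5.37 and -2.70, with sums of 32.7 and 21.1 against 0.178 and 1.59. On HF75 6 of 6 genes of either list were well above background. At week 3, where Camp was -3.10 on HF75, the T cell list was at 0.39 and the mature B cell list at 1.53. Over all 5 pairs the median difference was 0.03 for T cell and 0.26 for mature B cell genes, with 0 genes at an unadjusted p under 0.05. It was -1.13 for macrophage genes, with 7 of 10 at that limit, and -0.73 for fibroblast genes, with 5 of 8. The mammary epithelium list had the highest median, 1.71, with 2 of 5 tested genes at that limit. The part of these cell types in the differences of the granule genes was not tested.

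In limma 0 of the 10 genes passed in HF75 against HFC, where 294 of 28910 probes (1.02%) did, 235 higher and 59 lower. At an unadjusted p under 0.05 there were 0 genes and 4210 probes, normexp gave 0 genes and 2216 probes, and an unmoderated test gave 0 genes and 3926 probes. Ngp had the highest difference, 1.58 (95% interval -1.49 to 4.65, limma adjusted p = 0.667), which was 0.39 without week 12, 0.79 without week 9, 2.61 without week 3 and 0.04 with normexp. Only 2 of the 5 pairs, weeks 12 and 15, share a scan and none a slide. On these 2 Ngp was 3.41, Ltf was 2.63 against 0.94 over all pairs, and Camp was 2.53 against 1.15, while Ctsg turned from -0.47 to 1.06, Cebpe from -0.14 to 1.27 and Prtn3 from -0.55 to 0.26. Prtn3 had the lowest, -0.55. It passed the filter on dim probes only through HFC, was well above background on 1 of 5 HF75 and 3 of 5 HFC arrays, and in 0 of 5 pairs on both, so its value is a description. The median of the 10 genes was 0.90 against -0.01 for all probes, but 0.00 without week 9, -0.09 without week 12 and -0.08 with normexp, where all probes moved to -0.23.

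Of the 35 other neutrophil genes 32 were tested in HF75 and 1 was called, Olfm4, a secreted glycoprotein that marks a subset of neutrophils. It was -3.99, -4.70, -5.89, -4.16 and -6.96 on HF75 at weeks 3, 6, 9, 12 and 15, well above background at weeks 3, 6 and 12, and on none of the 5 HFC arrays. Olfm4 passed the filter on dim probes only through HF75, where it is high, and 7 of the 10 values are at a level not well above background. The fitted difference of 2.21 (95% interval 1.36 to 3.06, limma adjusted p = 0.0466) is therefore given as a description. The 294 calls fell to 0 without the block or without week 3, and to 1 with an unmoderated test. They were 8 without week 6, 205 without week 9, 93 without week 12 and 35 without week 15. The calls thus depend on the block, on the kind of test and on single time points. Dpt, of the fibroblast list, was the only gene called in the marker lists of other cells, at -2.43 (limma adjusted p = 0.0393).

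Time on the diets was examined as late (weeks 3 to 18) against early (days 1 to 14 and week 0) over 11 late and 10 early LFC and HFC arrays, without the LFC array of week 18. In limma 0 of 10 genes and 0 of 30188 probes (0%) were called, with 0 genes and 1493 probes at an unadjusted p under 0.05, 0 genes and 779 probes with normexp, and 0 genes and 1552 probes by an unmoderated test. Ngp had the lowest difference, with means of -3.82 late and -2.15 early and a fitted difference of -1.67 (95% interval -3.58 to 0.23, limma adjusted p = 1). It was -0.84 with normexp and -2.08 without the LFC array of week 3. Lcn2 had the highest, 1.06 (95% interval -1.00 to 3.11, limma adjusted p = 1), which was 0.51 with normexp, 0.62 without the LFC array of week 6 and 1.92 without week 9. Among other cell types, cell cycle genes had a median of -1.27 (4 of 10 at an unadjusted p under 0.05), mature B cell genes -1.25 (1 of 6), adipocyte genes -1.23 (2 of 8), keratinocyte genes -1.22 (0 of 6) and erythroid genes -1.04 (3 of 9), and their part was not tested. The median was -0.51 for the genes and 0.03 for all probes, the latter -0.19 with normexp and 0.26 with quantile normalization. Without the LFC array of week 3 these were -0.83 and -0.11, and without that of day 14 as well -0.93 and -0.15. Slides and scans differed between early and late arrays and cannot be told apart from time.

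Leaving out the dim LFC array of week 3 brought 13 probes past the threshold in this comparison, leaving out LFC arrays of both day 14 and week 3 brought 43, and neither brought any of the 10 genes. At an unadjusted p under 0.05 these gave 2 genes (Mpo and Ngp) and 4045 probes, and 1 gene (Ngp) and 3982 probes. Ltf and Lcn2 were low at week 9 in LFC, HFC, HF5 and HF20. Ltf was -3.94, -5.58, -5.62 and -4.86 on these, and Lcn2 was -5.29, -6.65, -7.48 and -5.08, not well above background on HFC and HF5. The adipocyte list on the same arrays was at 5.34, 4.93, 5.09 and 5.24. On the HF75 array of week 9, whose title lacks the mark of those 4, Ltf was -0.48, Lcn2 -3.66 and the adipocyte list 3.32. Low Ltf was not limited to week 9. At week 12 it was -4.41 on LFC, -4.00 on HFC and -4.88 on HF20, against -0.73 on HF5 and 0.95 on HF75. What the adipocyte RNA contributed to the low values was not tested.

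Whether the diet difference itself changed with time was tested as an interaction over 20 arrays. In limma 0 of 10 genes and 0 of 32705 probes (0%) were called, with 0 genes and 907 probes at an unadjusted p under 0.05, 6 genes (Mpo, Prtn3, Ctsg, Camp, Ngp and Cebpe) and 6683 probes with normexp, and 0 genes and 868 probes by an unmoderated test. Ctsg had the highest term: HFC minus LFC was 1.12 late and -1.22 early, a difference of 2.35 (95% interval -0.67 to 5.36, limma adjusted p = 0.855). Prtn3 had the lowest, -1.18 (95% interval -4.28 to 1.92, limma adjusted p = 0.855), which became 2.34 with normexp. The median of all probes was -0.71, or 0.91 with normexp, -0.50 with quantile normalization and -0.27 without the LFC array of week 3, so the sign of Prtn3 here depends on the background correction. The median term of the 10 genes was 0.83, and under the same alternatives 2.07, 0.93 and 1.97. Without the LFC array of week 3, 2 genes (Mpo and Ctsg) and 1350 probes had an unadjusted p under 0.05, and without the day 14 and week 3 time points 3 genes (Mpo, Ctsg and S100a9) and 1486 probes. Ctsg stayed positive, from 1.97 to 3.20 over 10 alternatives and from 1.61 to 3.21 with an array left out. T cell genes had a larger median term, 3.87, and mature B cell genes 4.76, each with 3 of 6 at an unadjusted p under 0.05, and their part in the granule genes' terms was not tested.

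Camp, Ngp and Ltf lie on chromosome 9 (chr9:109847377-109849456, chr9:110419808-110423012 and chr9:111019292-111042766 of GRCm38.p6), S100a8 and S100a9 lie beside each other on chromosome 3 (chr3:90669071-90670034 and chr3:90692630-90695721), and Ctsg and Cebpe lie on chromosome 14. Promoters of 9 of the 10 genes, from 250 bases before to 50 bases after the RefSeq gene start, were searched on both strands for TTNNGCAA, a motif of the C/EBP type, and GAGGAA, of the PU.1 type. TTNNGCAA was found in 4 of the 9 (Lcn2, Ltf, Ngp and S100a9) and in 10.8% of 32851 promoters of the same length. GAGGAA was found in 6 of the 9 (Ctsg, Lcn2, Ltf, Mpo, Prtn3 and S100a8) and in 28.3%. Both were found in 2, Ltf and Lcn2, and in 2.92% of all promoters. A match describes letters in a window and is no measured binding.

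Ltf and Lcn2 are shown because both were high on 4 of the 5 arrays of week 6, and Camp and Ngp because they moved together across arrays. The sequences come from RefSeq on GRCm38.p6, read 5′ to 3′ on the gene's strand. Capitals mark TTNNGCAA or GAGGAA on either strand, and Camp holds neither.
Ltf promoter, chr9:111019042-111019341, plus strand: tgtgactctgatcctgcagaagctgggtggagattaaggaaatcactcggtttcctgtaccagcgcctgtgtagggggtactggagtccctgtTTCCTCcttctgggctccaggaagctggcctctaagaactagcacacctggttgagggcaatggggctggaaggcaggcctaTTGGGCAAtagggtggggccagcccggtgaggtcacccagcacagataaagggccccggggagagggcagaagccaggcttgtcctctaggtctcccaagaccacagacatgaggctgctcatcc
Lcn2 promoter, chr2:32387690-32387989, minus strand: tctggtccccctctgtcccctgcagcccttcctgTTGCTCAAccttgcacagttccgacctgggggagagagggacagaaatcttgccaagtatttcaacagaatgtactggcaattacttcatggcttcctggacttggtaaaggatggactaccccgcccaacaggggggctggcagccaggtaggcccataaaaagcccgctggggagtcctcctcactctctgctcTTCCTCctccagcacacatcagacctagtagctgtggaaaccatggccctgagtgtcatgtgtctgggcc
Camp promoter, chr9:109849407-109849706, minus strand: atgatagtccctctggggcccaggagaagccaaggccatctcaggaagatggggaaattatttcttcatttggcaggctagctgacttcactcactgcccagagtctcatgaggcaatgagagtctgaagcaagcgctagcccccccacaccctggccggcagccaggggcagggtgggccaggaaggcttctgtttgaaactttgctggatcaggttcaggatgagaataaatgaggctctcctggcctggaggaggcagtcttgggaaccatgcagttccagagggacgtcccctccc
Ngp promoter, chr9:110419558-110419857, plus strand: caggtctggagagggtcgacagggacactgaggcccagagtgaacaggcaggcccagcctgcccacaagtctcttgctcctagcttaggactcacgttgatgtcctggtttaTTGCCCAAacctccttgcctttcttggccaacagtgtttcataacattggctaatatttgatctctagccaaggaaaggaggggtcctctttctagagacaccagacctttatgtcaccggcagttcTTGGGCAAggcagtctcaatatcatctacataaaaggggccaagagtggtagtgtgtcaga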

How the data were processed

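The authors deposited 1-colour Agilent scanner files whose processed signal intensity had been background-subtracted by Feature Extraction 10.5.1.1 per the file headers (9.1 per the labels), together with a table of fold changes, of which only the gene symbols were used. The log2 of the processed signal minus that of the array's 75th percentile was taken for 40628 probes on 40 arrays, outlier spots were dropped, spots of a probe averaged, and values under the lowest level well above background on an array raised to that level. Groups were compared with limma 3.58.1 in R 4.3.3 (lmFit and eBayes, Benjamini-Hochberg threshold 0.05) over all probes that rose well above background in 50% or more of 1 group's arrays, with time point as a block for pairs of diets. The pairing comes from the time point that paired arrays share in the labels. The code was tested on simulated data. Means, correlations and plots used Python 3.11.15, NumPy 2.4.6, pandas 2.3.3 and matplotlib 3.10.9.

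A bound for a saturated or dim probe is the bright array's level minus the mean, over the dim arrays, of the higher of the probe's own level and the lowest level well above background. The gene named for a comparison was the lowest, the highest and any at an unadjusted p under 0.05, and for likeness the 5 genes with the highest Pearson correlation among those well above background on at least 25% of arrays. Of 169 marker genes in 18 lists, 153 were matched by symbol, 13 by RefSeq accession and 3 by neither. The 10 genes and the lists were chosen with earlier results of these data known. The alternatives were normexp on mean and background signal with offset 50, quantile normalization, other filters, slide as a random block, no block, an unmoderated test, and left-out arrays. For pairs of diets replicates are separate time points, so p-values measure the spread over time points. Late against early and the interaction count both diets of a time point as separate arrays. Day 14 and week 0, which the study's methods treat as 1 time, were kept as 2. Arrays number few, which limits the precision.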

Additional observations from a re-analysis of the deposited data

Results flagged for a closer look

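In 40 groups of 4 to 10 values, without the LFC array of week 18 from which the genes were chosen, 4 had an array far from the others of its group by Dixon's test at the 95% level, and chance gives about 1 in 20 such groups. The groups were of LFC, HF5, HF20 and HF75. The HFC groups, with 11 values each, were not tested for such arrays. Ctsg on the HF5 array of week 18 was -0.21, and the next highest of the 6 arrays was -3.24. Camp on the HF20 array of week 3 was 0.06, and the next highest of the 5 arrays was -3.80. Lcn2 on the HF20 array of week 6 was 0.98, and the next highest was -4.16. Prtn3 on the dim LFC array of week 3 was at -0.03, that array's lowest usable level and not a measured value, and the next highest of the 9 LFC arrays was -4.46.

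On 1 of the 2 arrays of week 18 with conflicting labels, Ngp was 1.82, above the 0.26 that was highest on the grouped arrays other than the LFC array of week 18. That array had 21710 outlier spots, and Mpo, Prtn3 and Lcn2 have no value on it. None of the 10 interaction terms of diet and time passed the threshold in limma.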

How the results depend on the processing

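Of the 13 differences named as lowest, highest or under an unadjusted p of 0.05, some turned direction. The S100a8 difference of HFC against LFC, 0.01, was -0.21 without the day 14 and week 3 pairs. It was -0.68 without weeks 6 and 9 and those pairs, and -0.58 to 0.45 when each time point was left out. With the week 18 pair it was -0.28. Nothing is read from that value, because the genes were chosen from the LFC array of that pair. Without weeks 6 and 9 and the doubted time points, Ctsg in HF5 was 0.07 and Prtn3 in HF75 was 0.26. Prtn3 in HF20 was -0.60 with normexp and -0.00 to 1.50 with a time point left out, and its interaction term was 2.34 with normexp. The cause was not tested.

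The count of the 10 genes called stayed at 0 in all 67 fits with an array or pair left out and in 68 of 69 other values. The exception, chosen after seeing the data, was HF20 against HFC without weeks 6 and 9 and the doubted time points, which left 2 pairs and called 2 genes and 1877 probes. Without the time point as a block (the unpaired fit), the 294 probes called in HF75 became 0, and the genes called stayed at 0 in the diet comparisons. Those 294 were 148 with no filter on dim probes, 149 with probes above background on every array, 1 with an unmoderated test, and 0 to 205 with a time point left out. With normexp they were 239 higher and 10 lower, against 235 and 59. Late against early gave 16 probes without the doubted time points, 43 without the LFC arrays of day 14 and week 3 alone (chosen after seeing the data) and 2 with probes above background on every array. Slide as a random block could not be fitted for HF20 and HF75, where no slide held a pair. Dim arrays limit low genes: Prtn3 was not well above background on many arrays.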

Other observations

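The labels of 2 arrays of week 18 conflict, and their values belong to no diet here. On one of them Camp was 0.97, Ltf 0.57, Ngp 1.82, Cebpe 0.27, Ctsg -1.15 and S100a8 2.27, with S100a9 saturated at 5.00. On the other array Mpo was -2.53, Prtn3 -4.64, Ctsg -3.25, Camp -0.65, Ltf 0.98, Ngp -0.51, Cebpe -3.16, S100a8 3.06, S100a9 6.78 and Lcn2 -1.08. Neither array had the levels of Ctsg, Camp, Ltf, Ngp or Cebpe of the LFC array of week 18.

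Beyond the 10 genes, the eosinophil list separated that LFC array from all others, with a sum of 63.4 against at most 1.74 elsewhere, where the LFC array of day 14 was highest. Prg2 led that sum. Siglecf (-1.83 against a median of -5.90) and Il5ra (-3.68 against -5.39) were raised less. Both lay below the -0.03 of the dim LFC array of week 3, its lowest usable level. Erythroid genes separated it by their mean level, 3.62 against at most 1.89 elsewhere. Their sum on it, at least 334, is a lower bound because of the saturated globins. Its rank against 526 on the HFC array of day 6 is therefore not known. Proliferation genes separated it by their sum, at least 264 against at most 43.2 elsewhere, on the dim LFC array of week 3.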
